A study of Mus musculus with 12 samples.

Results

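The 10 genes described here encode cytokines and chemokines that activated T cells can release. They are Il2, Tnf, Lta, Ifng, the chemokine genes Xcl1, Ccl3 and Ccl4, and the suppressive cytokine genes Il10, Ebi3 and Tgfb1. They were chosen by name, with earlier results of these data known. All 10 were found among the 22180 genes of the deposited table that are paired with 1 gene symbol. RNA of mouse cTreg cells (central regulatory T cells, sorted from spleen and lymph nodes as CD4+ cells with the Foxp3-YFP reporter, high CD62L and low CD44, on a C57BL/6 background) was measured on 12 GeneChip Mouse Gene 2.0 ST arrays, 3 for each of 4 groups. In 3 groups the sorted cells had been cultured for 20 h with antibodies to CD3 and CD28 and recombinant IL-2, and with 50 nM Torin 1, with 500 nM PP242 or with the vehicle DMSO. The fourth group was unstimulated cells at 0 h, which the labels also give as DMSO treated. The doses of the inhibitors differ, and there was no group kept for 20 h without antibodies, so activation cannot be told apart from 20 h of culture with IL-2. The labels give neither the age of the mice nor whether the replicates came from separate mice, so the p values measure only the spread between these samples.

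Cytokine genes of T cells are mostly silent at rest. Signals of the T-cell receptor and CD28 switch them on through NFAT, AP-1 and NF-kB factors, and in regulatory T cells Foxp3 holds many of them down, Il2 included, so that these cells depend on IL-2 made by others. The kinase mTOR carries signals of the receptor, of CD28 and of growth factor cytokines to protein synthesis and metabolism, and Torin 1 and PP242 both block its kinase site. IL-10, TGF-beta and IL-35, of which Ebi3 encodes a subunit, are the cytokines best known for suppression by regulatory T cells.

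The arrays were alike as a whole. The median of an array over all transcript clusters lay between 4.95 and 5.08 on the log2 scale, and the correlation of any pair of arrays was between 0.964 and 0.987. All 8 regulatory T-cell markers examined (Foxp3, Il2ra, Ctla4, Ikzf2, Cd4, Cd3e, Tnfrsf18 and Nt5e) were above the dim level in every group. The values carry no detection calls, so a group mean was called dim at or under 5.13, the 95th percentile of 1409 genes of smell, pheromone and trace amine receptors, which T cells do not use. For a comparison with 1 dim group the fold is a lower bound, the bright mean set against the dim level (or against a dim array's own value where that was higher), and is written with "at least". Calls were made with limma over all 12 arrays, with p adjusted by Benjamini-Hochberg across 22180 genes and a threshold of 0.05. Changes are differences between group means in log2 units, given ± the standard error (SE). Each gene has 1 estimate of spread shared by all 4 groups, so an SE also holds the spread of groups outside the comparison. Foxp3, Ctla4 and Nt5e fell on activation (1.53-fold, 1.44-fold and 1.97-fold, limma adjusted p = 0.000163, 0.0012 and 2.74e-05), while Cd4 and Cd3e rose 1.37-fold and 1.40-fold. With PP242 Foxp3, Ctla4 and Nt5e were higher than with DMSO (1.23-fold, 1.26-fold and 1.61-fold, adjusted p = 0.0302, 0.0308 and 0.000918), and with Torin 1 Nt5e was (1.44-fold, adjusted p = 0.0126). The differences of Foxp3 and Ctla4 between the inhibitors were not called (adjusted p = 0.963 and 0.958). The part of these markers in the cytokine values was not tested. The RNA came from whole sorted populations, in which fewer cells making a cytokine and less RNA per cell cannot be told apart.

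On activation 6 of the 10 genes rose (Il2, Xcl1, Il10, Ifng, Tnf and Ccl3) and none fell, where 11.8% of all genes rose and 12.1% fell. With Torin 1, 6 genes were lower than with DMSO (Il2, Xcl1, Ifng, Lta, Tnf and Ccl3) and none higher, where 4.79% of all genes were lower and 3.33% higher. With PP242, 8 genes were lower (the same 6, Tgfb1 and Ccl4) and none higher, where 9.27% of all genes were lower and 7.38% higher. The median change over the 10 genes was 0.60 on activation, -0.63 with Torin 1 and -0.77 with PP242, and over all genes it was -0.04, 0.01 and 0.01. The comparisons share the DMSO arrays, so a gene that read high on those arrays by chance would appear both to rise on activation and to fall with each inhibitor. The 10 genes were also chosen with earlier results of these data known, so the counts are a description and not a test of the set.

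**Figure D1:**
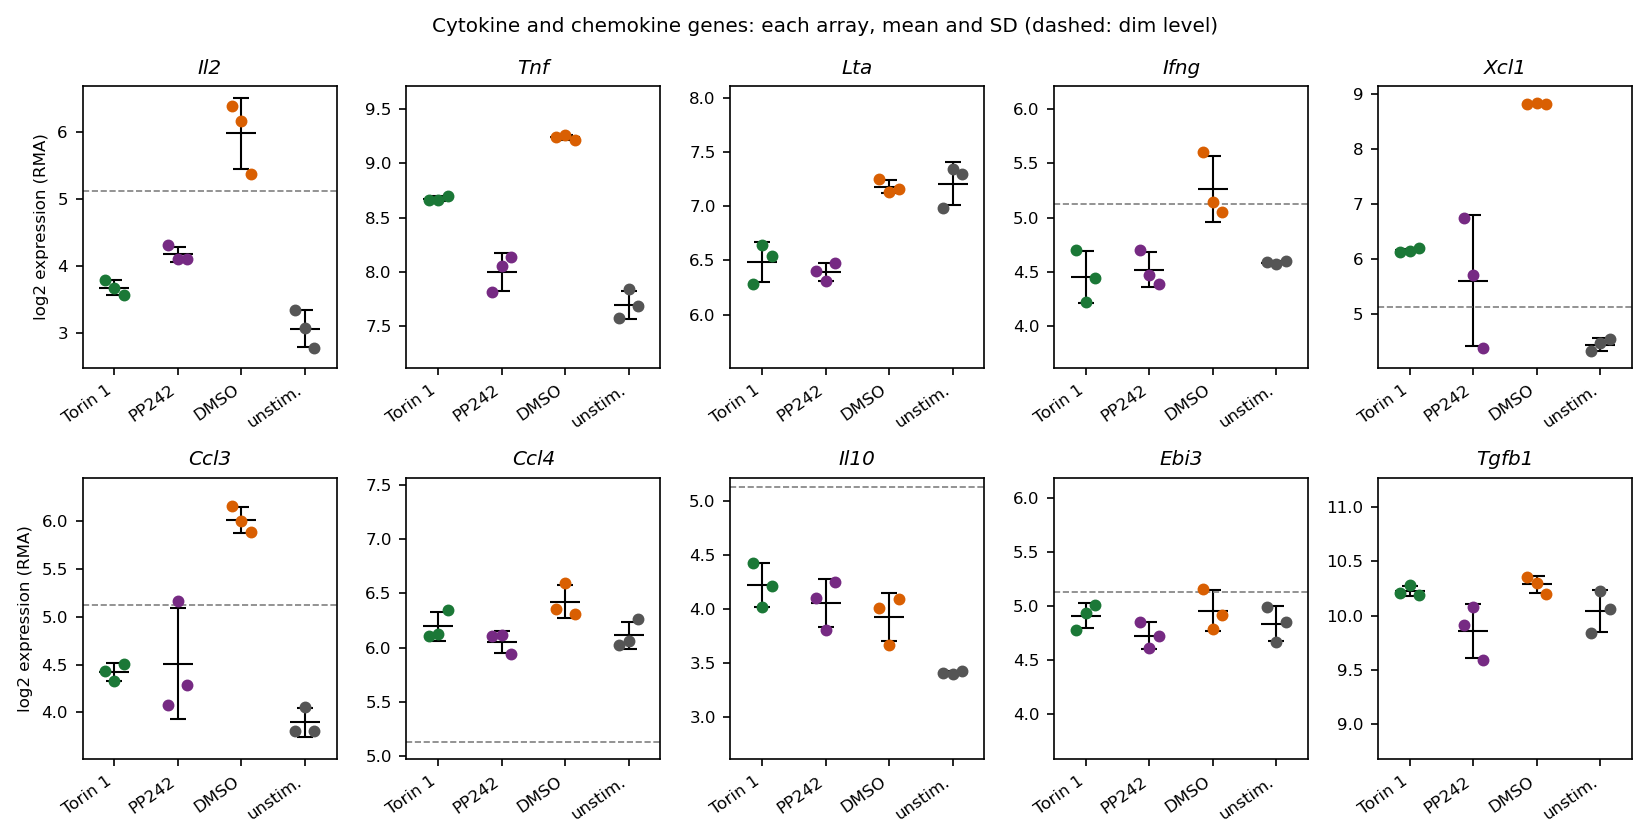
Each point is 1 array (vertical axis, deposited log2 expression), the bars are the mean and SD of 3 arrays, and the groups run from Torin 1, PP242 and DMSO to unstimulated cells in each panel. The dashed line is the dim level of 5.13. The 3 DMSO arrays lie above all others for Il2, Tnf, Ifng, Xcl1 and Ccl3, while Il10 lies under the line on all 12 arrays.

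Il2, Tnf, Ifng, Xcl1 and Ccl3 were the genes that rose on activation and were lower with both inhibitors, and all 5 had an entry in the RefSeq table of promoter windows, which held 8 of the 10 genes. The 250 bases before the start of each are shown (RefSeq, GRCm38.p6, 5′ to 3′ on the strand of the gene), because these genes share those calls. Capitals mark the NFAT core GGAAA, read on the other strand as TTTCC, and the TATA box TATAAA.
Il2, chr3:37125955-37126204, minus strand: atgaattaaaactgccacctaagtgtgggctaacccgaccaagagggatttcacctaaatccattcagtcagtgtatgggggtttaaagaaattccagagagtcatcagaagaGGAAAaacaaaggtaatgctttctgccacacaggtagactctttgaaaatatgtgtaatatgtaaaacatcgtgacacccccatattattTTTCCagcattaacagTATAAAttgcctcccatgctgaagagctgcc
Tnf, chr17:35202008-35202257, minus strand: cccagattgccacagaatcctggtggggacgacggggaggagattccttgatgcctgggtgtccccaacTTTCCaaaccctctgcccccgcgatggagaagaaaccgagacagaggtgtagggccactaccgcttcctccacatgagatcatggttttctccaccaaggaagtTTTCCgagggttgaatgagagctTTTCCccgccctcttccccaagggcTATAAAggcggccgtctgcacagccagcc
Ifng, chr10:118440796-118441045, plus strand: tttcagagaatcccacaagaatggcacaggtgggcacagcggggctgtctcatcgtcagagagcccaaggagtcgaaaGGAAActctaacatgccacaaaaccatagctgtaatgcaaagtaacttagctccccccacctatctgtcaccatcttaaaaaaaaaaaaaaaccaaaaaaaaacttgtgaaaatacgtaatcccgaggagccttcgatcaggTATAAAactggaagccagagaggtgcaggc
Xcl1, chr1:164935523-164935772, minus strand: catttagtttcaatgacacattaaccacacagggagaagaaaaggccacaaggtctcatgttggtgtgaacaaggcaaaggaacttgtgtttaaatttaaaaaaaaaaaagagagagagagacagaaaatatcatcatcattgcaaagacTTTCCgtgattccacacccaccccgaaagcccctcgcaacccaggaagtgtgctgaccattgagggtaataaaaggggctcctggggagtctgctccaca
Ccl3, chr11:83649379-83649628, minus strand: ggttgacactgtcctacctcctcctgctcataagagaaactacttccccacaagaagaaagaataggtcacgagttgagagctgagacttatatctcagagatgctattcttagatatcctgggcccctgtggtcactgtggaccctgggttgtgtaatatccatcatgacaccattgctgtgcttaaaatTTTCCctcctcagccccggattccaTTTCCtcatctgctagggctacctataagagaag

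In windows of 300 bases (250 before and 50 after the start, both strands searched) the NFAT core was found in 7 of the 8 genes, in all but Tgfb1, and in 61.34% of 32851 windows of that length. The TATA box was in 4 of 8, against 13.62% of all windows. It began at position -31 of Il2, -29 of Tnf and -30 of Ifng, counted back from the start, and at -167 of Lta. The window of Il2 held the NFAT core at -137 and -47, that of Tnf at -181, -77 and -54, and that of Ccl3 at -59 and -34. Xcl1 held it once, at -100, and Ifng once, at -172. The NF-kB consensus was found in Ebi3 alone (4.51% of all windows), and neither AP-1 as TGANTCA (7.81%) nor the cyclic AMP element TGACGTCA (1.79%) was in any of the 8. No matches overlapped in these windows, and a match of letters is a description, not a site of binding.

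Il2 encodes interleukin-2, the growth factor of T cells. It read 3.79, 3.67 and 3.57 with Torin 1, 4.31, 4.11 and 4.10 with PP242, 6.39, 6.17 and 5.38 with DMSO, and 3.34, 3.07 and 2.78 in unstimulated cells. Only the DMSO arrays were above the dim level, and replicate 3 was the lowest of them. Il2 rose on activation by 2.92 ± 0.21 (SE), at least 1.81-fold (limma adjusted p = 3.65e-07). It was at least 1.81-fold lower than with DMSO both with Torin 1 (-2.31 ± 0.21, adjusted p = 2.97e-05) and with PP242 (-1.81 ± 0.21, adjusted p = 5.68e-05). The groups of both inhibitors were dim, as were unstimulated cells, so no fold is given among them. Against unstimulated cells the PP242 group was called higher, by 1.11 (adjusted p = 0.00955). That call was lost without unstimulated replicate 3 (0.0536) and without empirical Bayes (0.0738). The Torin 1 group was not called, at 0.61 (adjusted p = 0.0958, and 0.016 without DMSO replicate 3). Recombinant IL-2 protein was in all 3 cultures, and the array reads the RNA of the gene only.

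Tnf, the gene of tumor necrosis factor, was above the dim level on every array. It read 8.66, 8.66 and 8.70 with Torin 1, 7.81, 8.05 and 8.14 with PP242, 9.24, 9.26 and 9.22 with DMSO, and 7.57, 7.84 and 7.68 in unstimulated cells. The DMSO arrays were the highest, the Torin 1 arrays lay below them and above all others, and the PP242 arrays overlapped unstimulated cells. Tnf rose 2.92-fold on activation (1.54 ± 0.11, limma adjusted p = 2.82e-07). It was 1.48-fold lower with Torin 1 than with DMSO (-0.57 ± 0.11, adjusted p = 0.0049) and 2.36-fold lower with PP242 than with DMSO (-1.24 ± 0.11, adjusted p = 6.06e-06). With Torin 1 it stayed 1.97-fold above unstimulated cells (adjusted p = 6.72e-05), and with PP242 the difference from unstimulated cells was 0.30 with a 95% confidence interval of 0.08 to 0.53 (adjusted p = 0.187).

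Tnf was also the 1 gene of the 10 that was called between the inhibitors, where 0.23% of all genes were lower with PP242 and 0.162% higher. It was 1.59-fold lower with 500 nM PP242 than with 50 nM Torin 1 (-0.67 ± 0.11, limma adjusted p = 0.0144), and the 3 arrays of each group did not overlap. The doses differ, so the compounds themselves cannot be compared here. The call was lost without Torin 1 replicate 1, 2 or 3 (adjusted p = 0.0596, 0.0622 and 0.0704), without PP242 replicate 1 (0.0589) and with only the 2 groups in the fit (0.108), while the change stayed between -0.74 and -0.58. Of the other 9 genes, Tgfb1 and Il2 had intervals that left out 0 (-0.65 to -0.09 for Tgfb1, 0.05 to 0.95 for Il2), with adjusted p of 0.266 and 0.358.

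Lta encodes lymphotoxin alpha, a close relative of tumor necrosis factor, and lies next to Tnf in the genome. It read 6.28, 6.64 and 6.54 with Torin 1, 6.40, 6.31 and 6.48 with PP242, 7.25, 7.13 and 7.16 with DMSO, and 6.98, 7.34 and 7.30 in unstimulated cells. Every inhibitor array lay under every DMSO array and every unstimulated array. The difference on activation was -0.03, with a 95% confidence interval of -0.29 to 0.23 (limma adjusted p = 0.903). Lta was 1.62-fold lower with Torin 1 than with DMSO (-0.70 ± 0.12, adjusted p = 0.00314) and 1.73-fold lower with PP242 than with DMSO (-0.79 ± 0.12, adjusted p = 0.000491). Both groups were also below unstimulated cells, 1.65-fold with Torin 1 (adjusted p = 0.00189) and 1.76-fold with PP242 (adjusted p = 0.00176), and Lta was the only gene of the 10 called lower than in unstimulated cells with either inhibitor. Tnf, its neighbour, was called higher on activation and, with Torin 1, above unstimulated cells.

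Ifng encodes interferon gamma, the cytokine of type 1 responses. The Torin 1 arrays read 4.70, 4.22 and 4.44, the PP242 arrays 4.70, 4.47 and 4.39, the DMSO arrays 5.61, 5.14 and 5.05, and the unstimulated arrays 4.59, 4.57 and 4.60. The DMSO arrays were the highest, but they lay at the edge of the dim level and replicate 1 stood above the others of that group. The rise on activation was 0.68 ± 0.15, at least 1.10-fold (limma adjusted p = 0.00493). Against DMSO, Ifng was lower with Torin 1 (-0.81 ± 0.15, adjusted p = 0.00519) and with PP242 (-0.74 ± 0.15, adjusted p = 0.00402), at least 1.10-fold in each case. The inhibitor groups were dim and overlapped unstimulated cells.

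Xcl1 encodes lymphotactin, a chemokine that draws the dendritic cells that carry XCR1. It read 6.14, 6.16 and 6.20 with Torin 1, 6.75, 5.71 and 4.39 with PP242, 8.82, 8.85 and 8.82 with DMSO, and 4.33, 4.47 and 4.56 in unstimulated cells. The DMSO and Torin 1 arrays each differed by less than 0.1, whereas the PP242 arrays were spread between 4.39 and 6.75, with replicate 3 among the unstimulated arrays. Of the 10 genes it had the largest change in all 3 comparisons. Its SE of 0.38 rests largely on the PP242 arrays (SD 1.18), also in comparisons without them. The SD was 0.03 with Torin 1, 0.01 with DMSO and 0.12 in unstimulated cells. Xcl1 rose at least 13.0-fold on activation (4.38 ± 0.38, limma adjusted p = 1.98e-06). It was 6.35-fold lower with Torin 1 than with DMSO (-2.67 ± 0.38, adjusted p = 0.000823) and 9.30-fold lower with PP242 than with DMSO (-3.22 ± 0.38, adjusted p = 6.51e-05). The change with PP242 was -2.60 without PP242 replicate 3 and -3.78 without PP242 replicate 1, and was called in both cases.

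With Torin 1, Xcl1 stayed at least 2.05-fold above unstimulated cells (1.71 ± 0.38, limma adjusted p = 0.0121, and 0.0512 without unstimulated replicate 1). With PP242 the difference from unstimulated cells was 1.16 and was not called (adjusted p = 0.146), and without PP242 replicate 3 it was 1.78 and was called (adjusted p = 0.000805). Replicate 3 of PP242 was not low for the chemokine gene Ccl3, where replicate 2 of that group was the one apart.

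Ccl3 encodes an inflammatory chemokine that draws monocytes and T cells. It read 4.43, 4.33 and 4.51 with Torin 1, 4.08, 5.17 and 4.29 with PP242, 6.16, 6.00 and 5.89 with DMSO, and 3.81, 4.06 and 3.81 in unstimulated cells. Only the DMSO group had a mean above the dim level, and PP242 replicate 2 was the 1 other array above it. Ccl3 rose on activation by 2.12 ± 0.21, at least 1.86-fold (limma adjusted p = 5.69e-06). It was lower than with DMSO by at least 1.86-fold with Torin 1 (-1.59 ± 0.21, adjusted p = 0.00051) and by at least 1.84-fold with PP242 (-1.51 ± 0.21, adjusted p = 0.000228). All inhibitor arrays lay above all unstimulated arrays, but the differences of 0.53 with Torin 1 (adjusted p = 0.149) and 0.62 with PP242 (adjusted p = 0.169) were not called. They were called without 1 array, PP242 replicate 2 for Torin 1 (adjusted p = 0.0137) and PP242 replicate 1 for PP242 (adjusted p = 0.0488).

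Ccl4, the neighbour of Ccl3 in the genome, encodes a related inflammatory chemokine. It moved far less than Ccl3. It read 6.11, 6.13 and 6.35 with Torin 1, 6.11, 6.12 and 5.94 with PP242, 6.36, 6.6 and 6.31 with DMSO, and 6.02, 6.06 and 6.26 in unstimulated cells. The DMSO arrays were above the unstimulated and PP242 arrays and overlapped those of Torin 1. The difference on activation, 0.31 ± 0.12, missed the threshold (limma adjusted p = 0.0644) and was called without unstimulated replicate 3 (0.0494), after quantile normalization (0.0358) and with arrays centred on their medians (0.0326). Ccl4 was 1.29-fold lower with PP242 than with DMSO (-0.37 ± 0.12, adjusted p = 0.0404). That call was lost without unstimulated replicate 2, without DMSO replicate 1 or 2, and without PP242 replicate 1, 2 or 3, with adjusted p between 0.0529 and 0.164. All transcript clusters, only the 2 groups in the fit, and the fit without empirical Bayes lost it too (0.0662, 0.0761 and 0.056). So did a robust fit with a trend, array weights and the replicate number as a block (0.0556, 0.0568 and 0.0587).

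**Figure D2:**
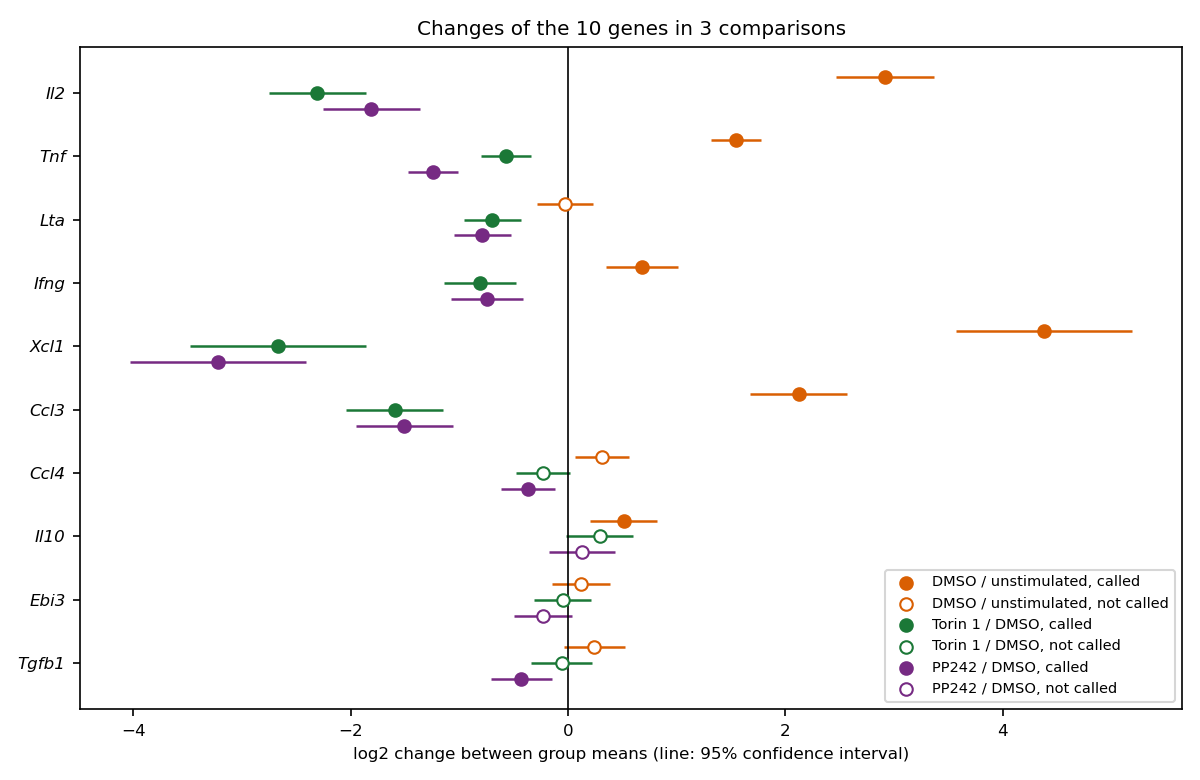
The horizontal axis is the log2 change between group means, with a line for its 95% confidence interval and a filled point where the gene was called. Xcl1 and Il2 have the largest changes, 4.38 and 2.92 on activation, and Lta is the 1 gene with a change near 0 on activation (-0.03) and calls for both inhibitors.

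None of the suppressive cytokine genes was called both on activation and with an inhibitor against DMSO. Il10 was the 1 gene of the 10 that rose on activation and was not lower with either inhibitor. It read 4.43, 4.02 and 4.21 with Torin 1, 4.10, 3.81 and 4.25 with PP242, 4.01, 3.67 and 4.09 with DMSO, and 3.41, 3.40 and 3.43 in unstimulated cells. All 9 cultured arrays were above the 3 unstimulated arrays, and all 12 were dim, so no fold is given. Il10 rose on activation by 0.51 ± 0.14 (limma adjusted p = 0.0172, and 0.0591 and 0.0701 without DMSO replicate 1 and replicate 3). Against DMSO it differed by 0.29 with Torin 1 (95% confidence interval -0.01 to 0.60, adjusted p = 0.268) and by 0.13 with PP242 (-0.17 to 0.44, adjusted p = 0.614).

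Tgfb1 encodes TGF-beta 1, which cells store in a latent form that must be released. It was bright on every array. It read 10.21, 10.28 and 10.19 with Torin 1, 9.91, 10.08 and 9.59 with PP242, 10.36, 10.30 and 10.20 with DMSO, and 9.84, 10.23 and 10.06 in unstimulated cells. The PP242 arrays lay below those of Torin 1 and DMSO and overlapped unstimulated cells. Tgfb1 was 1.35-fold lower with PP242 than with DMSO (-0.43 ± 0.13, limma adjusted p = 0.0369). The call was lost without DMSO replicate 1, 2 or 3 and without PP242 replicate 1 or 3 (adjusted p between 0.0518 and 0.153). The change was -0.29 without PP242 replicate 3. The call was also lost with all transcript clusters and with only the 2 groups in the fit (adjusted p = 0.0682 and 0.0748). Array weights and the fit without empirical Bayes lost it too (0.0513 and 0.0752). Neither activation (0.24, adjusted p = 0.206) nor Torin 1 (-0.06, adjusted p = 0.866) gave a call.

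Ebi3 encodes a subunit that IL-27 and IL-35 share. Its group means were 4.91 ± 0.12 with Torin 1, 4.73 ± 0.12 with PP242, 4.96 ± 0.19 with DMSO and 4.84 ± 0.16 in unstimulated cells (SD, n = 3 arrays each). All 4 means were dim, and only DMSO replicate 1, at 5.16, was above the dim level. No comparison gave a call. It was the 1 gene of the 10 with more than 1 transcript cluster, and the cluster not used read lower on all 12 arrays, between 3.87 and 4.41.

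**Figure D3:**
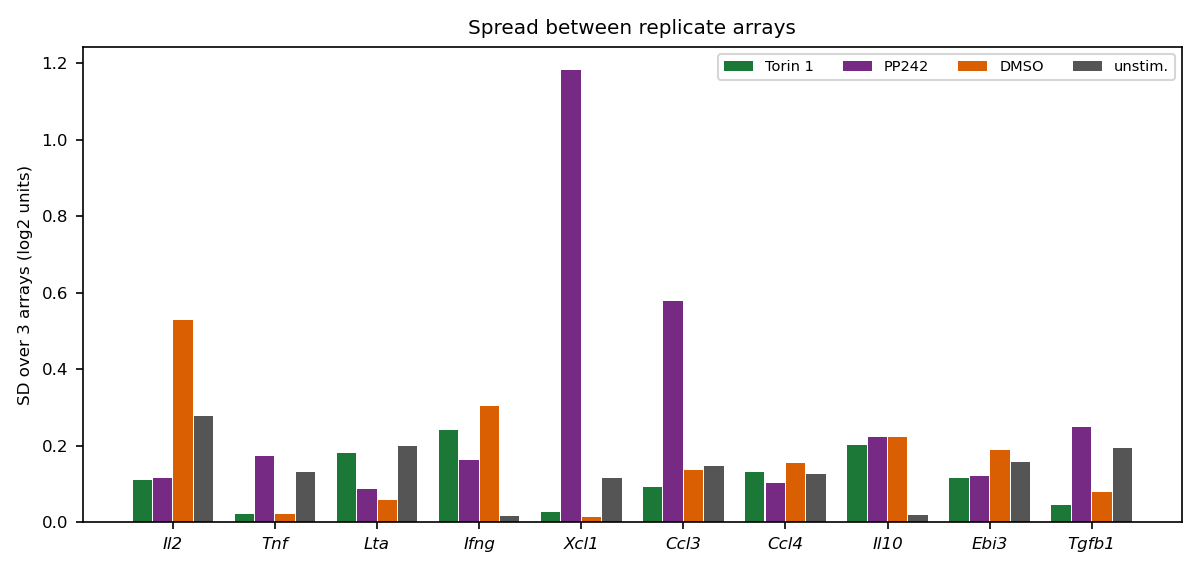
The bars give the SD over the 3 arrays of each group in log2 units, with the groups in the order Torin 1, PP242, DMSO and unstimulated. The PP242 bars of Xcl1 (1.18) and Ccl3 (0.58) and the DMSO bar of Il2 (0.53) stand above all others, and the next is 0.30, for Ifng with DMSO.

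The spread between replicates was not shared by the genes. The SD was 1.18 for Xcl1 and 0.58 for Ccl3 with PP242, and 0.09 and 0.17 for Lta and Tnf in that same group. With DMSO it was 0.53 for Il2 and 0.01 for Xcl1. The PP242 array with the highest Xcl1, replicate 1, was the one with the lowest Tnf and the lowest Ccl3.

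What was left of the activation change with each inhibitor differed from gene to gene. Against unstimulated cells, Xcl1, Il10 and Tnf were higher with Torin 1 and Lta lower, so that 3 of the 10 genes were called higher and 1 lower, where 4.42% of all genes were higher and 3.31% lower. With PP242, Il2 and Il10 were higher and Lta lower, 2 genes and 1 gene, where 1.73% of all genes were higher and 1.34% lower. Without unstimulated replicate 3 only 1 of these 3 calls with PP242 was left. For Il10 that call (0.64, limma adjusted p = 0.0246) was lost without any 1 of the 3 unstimulated arrays. It was also lost without PP242 replicate 1 or 3, with adjusted p between 0.0734 and 0.111 over these fits. All transcript clusters and the fit without empirical Bayes lost it too (0.0737 and 0.0861). With Torin 1 the difference of Il10 from unstimulated cells was 0.80 (adjusted p = 0.00276).

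The genes whose values ran closest to those of a cytokine over the 12 arrays were found for the 4 genes whose group means spanned at least 1 log2 unit, by the root mean square difference after each gene was centred. For Tnf they were Septin11, Gusb and Shmt2 (0.11, 0.13 and 0.13). For Ccl3 they were Exo1, Tmem97 and Tfdp1 (0.29, 0.30 and 0.30). Those of Il2 were Hells, Gins1 and Cd40lg (0.44, 0.45 and 0.45). Xcl1 was closest to Irf8 (0.48), with Cdca7 and Dtl next at 0.73 and 0.74.

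Among 72 other ligand genes measured, Cd40lg, the CD40 ligand through which T cells help B cells and dendritic cells, rose on activation and was lower with both inhibitors than with DMSO. Its means were 5.98 with Torin 1, 6.00 with PP242, 7.65 with DMSO and 5.53 in unstimulated cells. It rose 4.34-fold on activation (limma adjusted p = 4.74e-08) and was 3.17-fold lower with Torin 1 (adjusted p = 3.47e-06) and 3.13-fold lower with PP242 (adjusted p = 1.29e-06) than with DMSO. It was also above unstimulated cells, 1.37-fold with Torin 1 (adjusted p = 0.0315) and 1.38-fold with PP242 (adjusted p = 0.0472). Of 12 other ligands of the tumor necrosis factor family, Cd40lg, Tnfsf10, Tnfsf11 and Tnfsf14 rose on activation, where 11.8% of all genes rose. Ltb, whose protein pairs with lymphotoxin alpha, Tnfsf8 and Tnfsf15 fell, where 12.1% of all genes did. Tnfsf8, the CD30 ligand, ran the other way to Cd40lg: it was 2.56-fold lower on activation (adjusted p = 2.45e-06) and 1.59-fold and 1.42-fold higher with Torin 1 and with PP242 than with DMSO (adjusted p = 0.004 and 0.01). Against DMSO only Cd40lg and Tnfsf8 were called with Torin 1. With PP242 Tnfsf11 (RANK ligand) and Tnfsf14 (LIGHT) were lower as well, by at least 1.24-fold and 1.06-fold (adjusted p = 0.0143 and 0.00356). Both were dim in every group but DMSO, and their rises on activation were also at least 1.24-fold and 1.06-fold. Neither was called between the inhibitors (adjusted p = 0.731 and 0.47). Over all genes 4.79% were lower and 3.33% higher with Torin 1, and 9.27% and 7.38% with PP242.

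**Figure D4:**
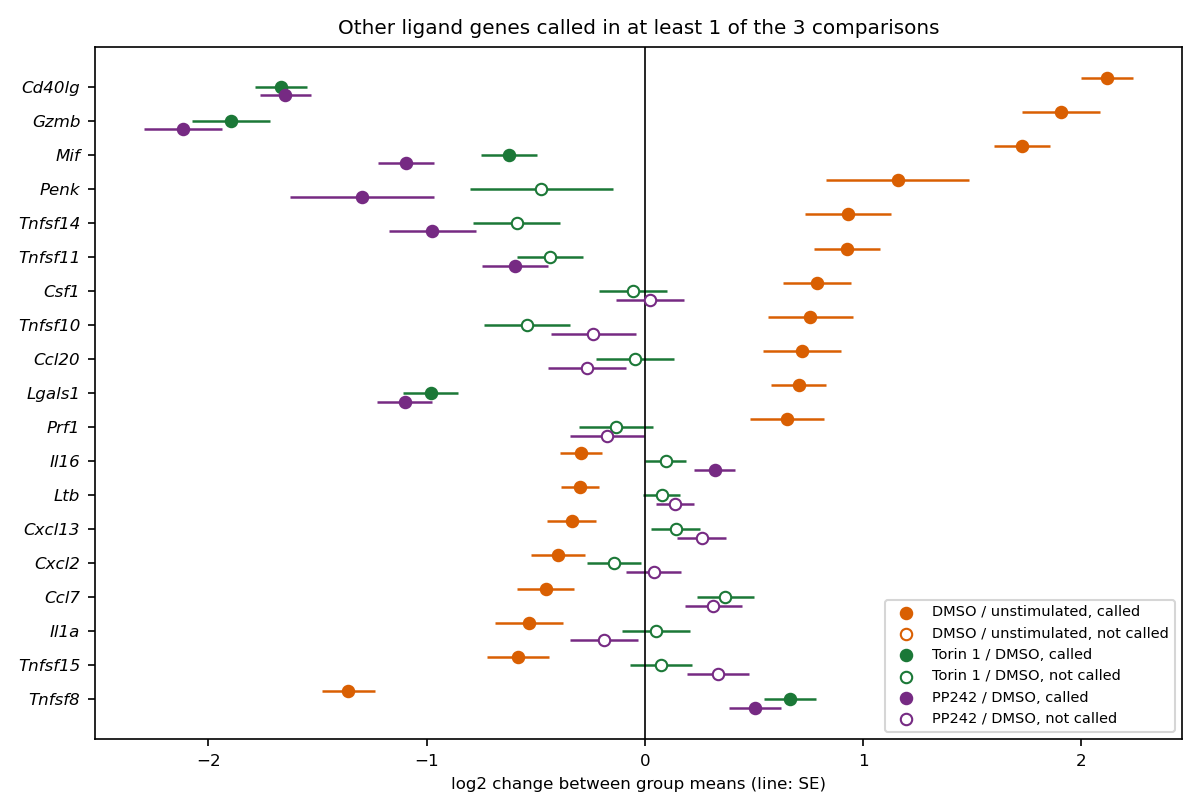
The 19 of 72 other ligand genes called in at least 1 of the 3 comparisons, with the log2 change on the horizontal axis, a line for the SE and a filled point where called. Cd40lg, Gzmb, Mif and Lgals1 are to the right on activation and to the left with both inhibitors, and Tnfsf8 is on the opposite sides.

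The other interleukin and chemokine genes are read against the 11.8% of all genes that rose on activation and the 12.1% that fell. Of 22 other interleukin genes none rose on activation and 2 fell, Il1a (-0.53, limma adjusted p = 0.0222) and Il16 (-0.29, adjusted p = 0.0367). Only 5 of the 22 were above the dim level in unstimulated cells and 4 with DMSO, and Il1a was dim in both groups. Il16 was the only one of the 22 called with an inhibitor against DMSO, 1.25-fold higher with PP242 (adjusted p = 0.0314). Of 22 other chemokine genes Ccl20, which draws cells with CCR6, rose 1.65-fold on activation (adjusted p = 0.00852), and Ccl7, Cxcl2 and Cxcl13 fell. Of the 22, 9 were above the dim level in unstimulated cells and 7 with DMSO. Cxcl2 was dim in both groups, and Ccl7 and Cxcl13 were dim with DMSO. None of the 22 was called with either inhibitor against DMSO. The median change of the other chemokines was 0.03 with Torin 1 and 0.01 with PP242.

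Of 16 colony stimulating, growth factor and suppressive ligands, 6 rose on activation (Csf1, Mif, Penk, Lgals1, Gzmb and Prf1) and none fell. Over all genes 11.8% rose and 12.1% fell on activation, 4.79% were lower with Torin 1 and 9.27% with PP242. Gzmb, the gene of the cytotoxic protease granzyme B, rose at least 3.37-fold (limma adjusted p = 3.85e-06) and was lower than with DMSO by at least 3.65-fold with Torin 1 (adjusted p = 4.09e-05) and by at least 3.67-fold with PP242 (adjusted p = 5.49e-06). Mif, the gene of macrophage migration inhibitory factor, rose 3.31-fold on activation and was 1.54-fold lower with Torin 1 and 2.13-fold lower with PP242. Lgals1, the gene of galectin-1, rose 1.63-fold and was 1.98-fold lower with Torin 1 and 2.14-fold lower with PP242 than with DMSO. Penk, which encodes the precursor of enkephalins, was called with PP242 (at least 1.95-fold lower, adjusted p = 0.0139) and not with Torin 1, and the difference between the inhibitors was not called (adjusted p = 0.33).

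Of 17 receptors of these ligands measured, Tnfrsf1b, a receptor for tumor necrosis factor, and Tgfbr3 rose on activation, and Il10ra, Ifngr1, Ifngr2 and Tgfbr2 fell, 2 and 4 genes where 11.8% of all genes rose and 12.1% fell. Ifngr1, the chain of the interferon gamma receptor that binds the ligand, was 2.70-fold lower on activation (limma adjusted p = 1.51e-07) and was higher than with DMSO by 1.55-fold with Torin 1 (adjusted p = 0.000998) and by 2.00-fold with PP242 (adjusted p = 9.18e-06). Il12rb2, a receptor chain for IL-12 and IL-35, was lower with Torin 1 (2.20-fold, adjusted p = 0.0126) and with PP242 (at least 2.29-fold, adjusted p = 0.000733). Of 12 genes that store and release TGF-beta, Lrrc32 (GARP, which holds latent TGF-beta on regulatory T cells) fell 1.33-fold on activation, and Nrros and Itgav rose. Itgav and Itgb8 are the chains of an integrin that releases TGF-beta. With PP242 they were 1.40-fold and 1.38-fold lower than with DMSO (adjusted p = 0.00598 and 0.035), where 9.27% of all genes were lower. With Torin 1 none of the 12 was called, and the differences of Itgav and Itgb8 between the inhibitors were not called (adjusted p = 0.401 and 0.104).

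Of 32 transcription factors known to bind cytokine genes of T cells, 10 rose and 5 fell on activation. Over all genes 11.8% rose and 12.1% fell. Egr3, a factor induced through NFAT, rose at least 7.44-fold, and Irf4, a factor of activated lymphocytes, 7.29-fold. The 5 that fell were Nfatc3, Fosb, Jun, Stat4 and Stat5b. Batf and Tbx21, the factor of type 1 responses that acts on Ifng, rose 2.60-fold and 2.45-fold on activation. They were the only 2 of the 32 lower with Torin 1 than with DMSO (1.51-fold and 1.76-fold, limma adjusted p = 0.0153 and 0.0136). Over all genes 4.79% were lower with Torin 1. With PP242 Batf, Tbx21, Egr3 and Nfkb2 were lower and Nfatc3, Stat4 and Stat5b higher than with DMSO. Over all genes 9.27% were lower and 7.38% higher with PP242. Nfkb2 was also the 1 factor called between the inhibitors, 1.47-fold lower with PP242 than with Torin 1 (adjusted p = 0.0417). Of 13 regulators of cytokine mRNA decay and translation, 5 rose on activation (Zfp36, Zfp36l1, Zc3h12d, Elavl1 and Khsrp). Another 3 fell (Rc3h1, Rc3h2 and Tia1). Against DMSO none was called with Torin 1, and with PP242 Zfp36, Rc3h2 and Tia1 were higher and Elavl1 lower. These counts are read against the same shares of all genes as those of the factors. Zfp36, whose protein tristetraprolin destabilizes Tnf mRNA, was 1.51-fold higher with PP242 than with DMSO (adjusted p = 0.0106). With Torin 1 it was 1.37-fold higher than with DMSO, which was not called (adjusted p = 0.0664). No regulator was called between the inhibitors (adjusted p = 0.771 for Zfp36). The part of Zfp36 in the Tnf values was not tested.

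Natural killer and CD8 T cells also make Xcl1, Ccl3, Ccl4 and Ifng, so their markers were examined beside these genes. Of 6 natural killer markers, Nkg7, which activated T cells also express, followed the pattern of Xcl1. Its means were 7.14 with Torin 1, 6.58 with PP242, 8.18 with DMSO and 6.18 in unstimulated cells, a rise of 3.98-fold on activation (limma adjusted p = 2.99e-07). Ncr1, Klrb1c, Gzma and Klrd1 were dim in every group, and Ncr1 and Klrd1 were lower on activation. Eomes was above the dim level with Torin 1 alone, at 5.35, and was called higher there than in unstimulated cells. It was also at least 1.17-fold lower with PP242 than with Torin 1 (limma adjusted p = 0.0462). The mean over the 6 markers was 4.43 to 4.74 on the Torin 1 arrays, 4.31 to 4.49 on the PP242 arrays, 4.71 to 4.79 on the DMSO arrays and 4.42 to 4.49 on the unstimulated arrays. Cd8a was dim in every group. Cd8b1 averaged 7.40 with Torin 1, 7.42 with PP242, 7.68 with DMSO and 8.08 in unstimulated cells. Neither gene was called on activation or with an inhibitor against DMSO, and Cd8b1 was called lower than in unstimulated cells with each inhibitor. Myeloid cells make Tnf and Ccl3, and of 8 myeloid markers none rose on activation, with Cd68 and Ly6c2 lower. Of 5 B-cell markers Ms4a1, dim in every group, rose on activation and was lower with Torin 1 than with DMSO (limma adjusted p = 0.0311), Cd79b fell on activation, and Cd22 was lower with Torin 1 and with PP242 (-0.51 and -0.46, adjusted p = 0.0335 and 0.0315). Cd68 was higher with PP242 than with DMSO (1.52-fold, adjusted p = 0.022). Of 7 platelet markers Itga2b, Itgb3 and Treml1 fell on activation, Itga2b was higher with Torin 1 (1.44-fold, adjusted p = 0.00511) and with PP242 (1.47-fold, adjusted p = 0.00159) than with DMSO, and Itgb3 with PP242 (1.41-fold, adjusted p = 0.0324), and none of 5 dendritic-cell markers nor the 1 gamma delta T-cell marker measured was called on activation or with an inhibitor against DMSO. Against unstimulated cells Nkg7 was higher with Torin 1, Cd79b, Csf1r and Itgb3 were lower with Torin 1, and Ly6c2 was lower with both inhibitors. Over all genes 11.8% rose and 12.1% fell on activation, 4.79% were lower and 3.33% higher with Torin 1, and 9.27% and 7.38% with PP242. The part of other cell types in the cytokine values was not tested further.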

How the data were processed

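RNA of 12 samples was amplified with the WT Pico protocol and hybridized to GeneChip Mouse Gene 2.0 ST arrays. The deposited values are on the log2 scale and were made by the authors with RMA (background correction, normalization across arrays, probe summary), and Partek 6.6 is named in the submitters' processing notes. The genome build behind the transcript clusters is not given in the sources used here. Groups and replicate numbers came from the sample labels, and no column was left out.

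Of 41345 clusters, 23521 carried 1 gene symbol. For 1082 genes with several clusters the one of highest mean was kept, which left 22180 genes. All were fitted with limma 3.58.1 in R 4.3.3 (4 group means, empirical Bayes, no filter on dim genes) in 6 comparisons. The paper's methods name an ANOVA, run here as the fit without empirical Bayes. The fit was tested on simulated data. The number of arrays limits the precision.

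The 10 genes, the wider lists and the markers were chosen with earlier results of these data known. All 10 are named; of the wider lists, up to 4 genes with the largest called changes and those that fill a count of 5 or fewer, and a few others chosen after their values were seen; and for genes whose group means span 1 log2 unit, the 3 most alike genes. Same-numbered arrays did not deviate together (correlations -0.07 to 0.06), so the numbers were not taken as pairs. Promoter windows are those of RefSeq. The alternatives were quantile normalization, median centring, a filter on dim genes, other choices of cluster, fit, weights and threshold, the replicate number as a block, and each array left out in turn.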

Additional observations from a re-analysis of the deposited data

Results flagged for a closer look

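Tnf was lower with 500 nM PP242 than with 50 nM Torin 1 by a tested difference of -0.67 (limma adjusted p = 0.0144), so the effect of the inhibitors against the shared DMSO arrays differed for this gene, -1.24 with PP242 and -0.57 with Torin 1. The 3 PP242 arrays read 7.81 to 8.14 and the 3 Torin 1 arrays 8.66 to 8.70. The doses differ, and the call was lost without any 1 of the 3 Torin 1 arrays (adjusted p = 0.0596 to 0.0704) and without PP242 replicate 1 (0.0589).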

How the results depend on the processing

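Of 28 called changes of the 10 genes over 6 comparisons, 21 kept their call and direction under all 23 alternatives that could be run for them (the filter on dim genes removes Il2, Il10, Ifng, Ebi3 and Ccl3), and none changed direction. The 7 others were lost under at least 1 alternative: Xcl1 with Torin 1, Il2 and Il10 with PP242 and Il10 with DMSO, each against unstimulated cells, Tgfb1 and Ccl4 with PP242 against DMSO, and Tnf between the inhibitors. With the filter on dim genes 3 genes were called on activation (Xcl1, Tnf and, newly, Ccl4 at an adjusted p of 0.0342), 3 with Torin 1, 5 with PP242 and 1 with PP242 against unstimulated cells. Without empirical Bayes 1 gene was called with PP242 against unstimulated cells (Lta), and with arrays left out in turn 1 to 3. Between the inhibitors 0 genes were called with only the 2 groups in the fit or at an adjusted p under 0.01, and 0 or 1 with arrays left out. With the replicate block Ccl4 lost its call with PP242 (adjusted p = 0.0587) and Il2 gained one with Torin 1 against unstimulated cells (0.0309), and the counts were 6, 6, 7 and 1 for activation, Torin 1, PP242 and between the inhibitors, and 5 and 3 for Torin 1 and PP242 against unstimulated cells.

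Of the 32 changes not called, 10 changed direction at least once. For Ebi3 the median over clusters gave -0.0688 on activation, 0.114 with Torin 1 and 0.0233 with PP242. Lta on activation was 0.0465 with arrays centred on their medians and -0.142 to 0.0393 with arrays left out. With arrays left out, Ebi3 with Torin 1 ranged over -0.134 to 0.0538 against DMSO and -0.0129 to 0.144 against unstimulated cells. Between the inhibitors Xcl1 ranged over -1.12 to 0.0643, Ifng over -0.0490 to 0.193 and Ccl3 over -0.241 to 0.304, and with PP242 against unstimulated cells Ifng ranged over -0.156 to 0.00179 and Ccl4 over -0.101 to 0.0150. The cause of these changes was not tested. With the dim level at the 90th or 99th percentile, 1 or 5 of the 10 genes were dim in every group, against 2, and the bounds on folds move with it.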
